A study of Homo sapiens with 36 samples.

Results

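Oxidative phosphorylation in mitochondria rests on 4 respiratory chain complexes and the ATP synthase, and most of their subunits are encoded in the nucleus. The set described here holds the protein-coding genes whose symbols begin with NDUFA, NDUFB, NDUFC, NDUFS or NDUFV, with SDHA to SDHD, with UQCR, with COX followed by a subunit number from 4 to 8, or with ATP5F, ATP5M or ATP5P, leaving out the NDUFAF and SDHAF assembly factors. The rule used symbols alone and found 89 of the 61587 genes counted. By complex these were 37 genes of complex I, 4 of complex II, 9 of complex III, 19 of complex IV and 18 of the ATP synthase, with 2 readthrough genes, ATP5MF-PTCD1 and NDUFC2-KCTD14, that share exons with a subunit gene and its neighbour. NDUFA4 and NDUFA4L2 were counted with complex IV, where the NDUFA4 protein is now placed.

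Messenger RNA was sequenced from TXNL1 knockout cells made from HEK293T, an established human embryonic kidney line. TXNL1 is a thioredoxin-like protein that binds the proteasome. The knockout came from single sorted cells grown into clones, and how many clones stand behind the 4 lines is not given in the sources used here. The lines were transduced with lentivirus carrying an empty vector, WT TXNL1, D162R R234D TXNL1, which was made to lose proteasome binding, or SxxS TXNL1, in which the thioredoxin cysteines are replaced, all expressed from a CMV promoter. Each line was left untreated (given DMSO according to the labels), exposed to 100 µM arsenite, or exposed to 600 µM hydrogen peroxide, each for 6 h, with 3 replicates per group, 12 groups and 36 libraries. The doses and the time are from the study's methods. Those methods describe treatment in triplicate in multi-well plates, but neither they nor the labels say that replicates were independent cultures. The p-values therefore measure the spread between these samples, which may be technical.

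Complex I passes electrons from NADH to ubiquinone, and complex II passes them from succinate to ubiquinone. Complex III moves them on to cytochrome c and complex IV from there to oxygen, while complexes I, III and IV pump protons whose return drives the ATP synthase. The subunit genes are found transcribed together in most tissues, and promoters of many hold sites for the factors NRF1, GABP (an ETS factor) and YY1.

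Library totals ran from 42072410 to 174119002 counts with a median of 66016833. Levels are given in CPM, each library's counts scaled to its TMM-adjusted size. TXNL1 lay at 28.6 to 31.7 CPM in the untreated vector libraries and at 51.7 to 66.2 CPM in the 9 untreated libraries of the complemented lines, so the mRNA of the targeted gene was still counted in the knockout. Of the genes used to check the cell type, VIM lay between 445 and 515 CPM in untreated libraries, NEFL between 1.51 and 2.68 and LHX1 between 1.16 and 2.15, while NEFM and PAX2 reached at most 0.212 and 0.43 CPM. Of 12 markers of other cell types, COL1A1 reached 19.8 CPM and COL1A2 2.56, and the other 10 at most 0.878 CPM, with the cardiac genes MYH7 and TNNT2 at 0 in each untreated library. Replicate 1 of WT arsenite and replicate 2 of WT peroxide stood apart from the other replicates of their groups, with a spread of log2 values of 0.546 and 0.624 against 0.082 to 0.19 in the other 34 libraries. The counts of called members by complex and by comparison are therefore given with and without these 2 libraries.

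These 2 libraries bear directly on the respiratory chain genes. In WT arsenite replicate 1, the members lay a median of 0.67 on the log2 scale above the other 2 replicates, with 78 of 83 tested members above them, while the median over all 22486 tested genes was −0.02. In WT peroxide replicate 2 the median of the members was 0.76, with 80 of 83 above, against 0.01 over all genes. Genes with short transcripts were high in both libraries. The 947 tested genes of at least 10 CPM with a main transcript under 1000 bases had medians of 0.60 and 0.71, and the 5592 with 3000 bases or more had medians of −0.37 and −0.39. The 49 members under 1000 bases were all above their group in both libraries, with medians of 0.77 and 0.81. What made these libraries differ was not tested.

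**Figure D1:**
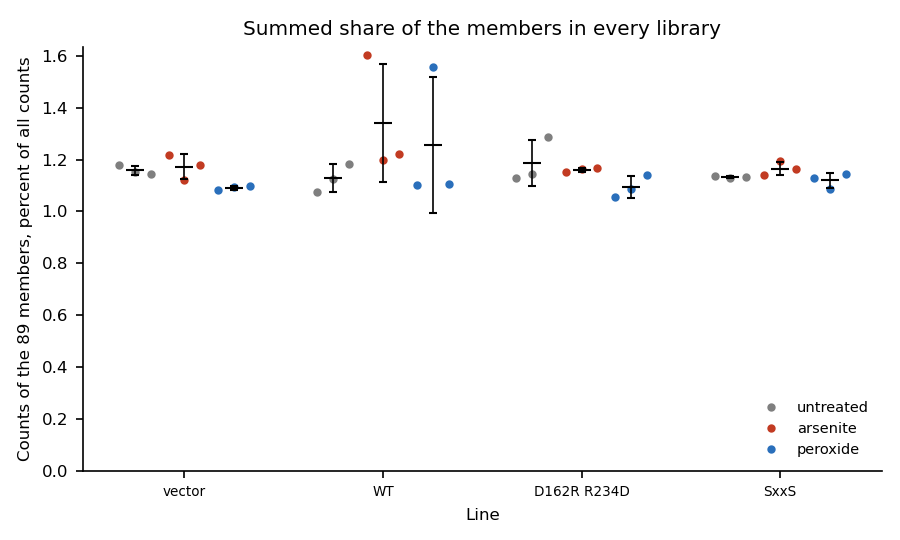
Summed counts of the 89 members as a percent of all counts in a library (vertical axis, from 0) for the 4 lines (horizontal axis) and 3 treatments (colours); points are libraries, black bars the mean and SD of 3 replicates. WT arsenite replicate 1 at 1.60% and WT peroxide replicate 2 at 1.56% stand above the other 34 libraries.

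Taken as one sum, the 89 genes made up a similar share of the mRNA whatever the treatment. The lowest, median and highest of the 12 untreated libraries were 1.07%, 1.14% and 1.29% of all counts. With arsenite they were 1.12%, 1.17% and 1.22% over 11 libraries and 1.60% in WT replicate 1. With peroxide they were 1.06%, 1.10% and 1.15% over 11 libraries and 1.56% in WT replicate 2. The ranges of the 3 treatments overlapped. In cultures such as these, fewer cells and less RNA per cell cannot be told apart, and a share of counts shows neither.

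The test was run on genes whose counts summed to 10 or more over the vector libraries without treatment, which 83 of the 89 members passed. The 6 below this filter were COX4I2, COX6A2, COX7A1, COX7B2 and COX8C, tissue-restricted forms of complex IV subunits, and ATP5MGL, a copy of the ATP synthase subunit gene ATP5MG. COX6A2 and COX7B2 had 0 counts in all 36 libraries, COX4I2 had 2, ATP5MGL 8, COX8C 82 and COX7A1 88.

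Levels between genes are compared per kilobase of the main transcript. In the untreated libraries ATP5F1B, the catalytic beta subunit of the ATP synthase, stood highest, at a median of 751 CPM per kb (740 to 818 over 12 libraries). UQCRH, the hinge protein of complex III, followed at 469 (429 to 550) and COX6A1 of complex IV at 408 (362 to 517). The ranges of UQCRH and COX6A1 overlapped, and both lay below ATP5F1B in every untreated library. The lowest tested members were COX6B2, the testis form of COX6B, at 0.0625 CPM per kb (0.0193 to 0.165), NDUFA4L2, a hypoxia-induced relative of NDUFA4, at 0.579 (0.292 to 0.92), and NDUFV3, a complex I accessory subunit, at 8.27 (7.61 to 8.81). The median member stood at 91.4 CPM per kb in complex I, 88.35 in complex II, 117 in complex III, 149 in complex IV and 143 in the ATP synthase. The order of genes depended on the length used. Per kilobase of all annotated exons ATP5F1B still led, at a median of 590. NDUFS5 at 310 and COX8A at 238 came next, above UQCRH at 188 and COX6A1 at 163. COX6B2 and NDUFA4L2 were again the lowest tested members, at 0.0263 and 0.195, followed by NDUFA10 at 4.89, below NDUFV3 at 7.47.

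Within the isoform pairs the widely expressed form carried nearly all counts. COX4I1 lay at 318 CPM per kb, COX6B1 at 272, COX8A at 238, COX7A2 at 208, NDUFA4 at 53.5 and COX7B at 27.7, and COX7A2L, which takes part in supercomplex assembly, at 34.4. UQCRHL, a near copy of UQCRH, was listed at 48.7 CPM per kb, but reads of such copies may be split by the counting. Of the members, 50 have pseudogenes named after them, 189 in all, and 48 share exonic sequence with another annotated gene. The use of strand is not given in the sources used here, and reads of overlapping genes cannot be told apart without it.

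The promoters were examined for 3 motifs. RefSeq sequences (GRCh38.p14) from 250 bases before to 50 bases after the gene start were found for 70 of the 89 members and for 27305 genes. Both strands were searched. The NRF1 motif GCGCANGCG was in 34.3% of members' windows and 9.02% of all windows, the ETS core CCGGAAG in 30.0% against 12.2%, and the YY1 motif AAGATGGCG in 12.9% against 2.14%. At least 1 of them was in 62.9% of members' windows and 20.5% of all windows, and matches may overlap one another. All windows include those of genes not tested here, and were not matched to the members for level or base composition. A match is a description of the letters, not a bound site. The stretches upstream of the start and free of exons are shown for 3 members with matches, chosen to show the NRF1 and ETS letters (in capitals, on either strand), and for NDUFV2, whose mRNA fell most with arsenite and whose window held none of the 3 motifs. Each is written 5′ to 3′ on the strand of the gene: NDUFB4 from chr3:120596086-120596327 (plus strand), UQCR11 from chr19:1605474-1605712 (minus), COX5B from chr2:97645812-97646061 (plus) and NDUFV2 from chr18:9102493-9102629 (plus).
NDUFB4: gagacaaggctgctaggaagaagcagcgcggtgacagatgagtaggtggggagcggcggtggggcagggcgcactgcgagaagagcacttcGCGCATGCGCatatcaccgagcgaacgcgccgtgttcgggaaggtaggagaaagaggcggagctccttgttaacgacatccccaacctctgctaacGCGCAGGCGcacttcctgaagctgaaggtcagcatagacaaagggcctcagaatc
UQCR11: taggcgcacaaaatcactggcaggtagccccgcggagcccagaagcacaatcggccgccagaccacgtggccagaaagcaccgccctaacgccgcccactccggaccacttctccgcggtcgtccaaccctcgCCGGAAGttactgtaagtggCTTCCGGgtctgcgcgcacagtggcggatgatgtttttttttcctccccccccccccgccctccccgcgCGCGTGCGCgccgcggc
COX5B: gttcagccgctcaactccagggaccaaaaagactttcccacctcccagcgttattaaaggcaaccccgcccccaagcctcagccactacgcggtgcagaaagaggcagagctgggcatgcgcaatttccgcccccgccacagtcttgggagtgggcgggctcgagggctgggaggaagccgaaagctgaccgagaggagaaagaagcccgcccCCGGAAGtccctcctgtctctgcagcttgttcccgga
NDUFV2: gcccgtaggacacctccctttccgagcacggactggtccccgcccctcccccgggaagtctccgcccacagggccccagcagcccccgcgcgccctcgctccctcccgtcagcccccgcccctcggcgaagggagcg

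Arsenite against untreated cells asks how a thiol-reactive oxidant changes these mRNAs. Averaged over the 4 lines, most respiratory chain genes moved little, and a few moved clearly in opposite directions. NDUFV2, an iron-sulfur subunit of the NADH-oxidizing part of complex I, fell most, by 0.73 on the log2 scale. SDHC and SDHD, the membrane anchors of complex II, and NDUFA5, an accessory subunit of complex I, fell by 0.22 to 0.24. NDUFV1, the flavin-carrying partner of NDUFV2, rose by 0.38, and NDUFB9 and NDUFA10, accessory subunits of complex I, by 0.35 and 0.31. With edgeR's quasi-likelihood test and Benjamini-Hochberg adjustment over all tested genes, 35 of 83 members passed an adjusted p of 0.05 (42.2%), 29 higher and 6 lower. Over all 22486 tested genes 68.8% passed, 37.4% higher and 31.5% lower. The median change was 0.14 for the members and 0.06 for all tested genes, and the median size of a change, whatever its sign, was 0.15 and 0.37. No tested member changed by 1 or more on the log2 scale, against 14.2% of all tested genes. Most members are well expressed. Over the 10246 tested genes of at least 10 CPM, which include 81 of the members, 78.7% passed, the median size was 0.295 (0.142 for those members) and 8.39% changed by 1 or more.

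Without the 2 outlying WT libraries, 48 members passed, 29 higher and 19 lower, against 73.7% of all tested genes (38.4% higher and 35.3% lower), and the median of the members was 0.05. The same 6 members were called lower in both fits, NDUFA5, NDUFC1, NDUFS1, NDUFV2, SDHC and SDHD, and 28 were called higher in both. The averaged value was lower without the outlying libraries for 81 of 83 members.

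**Figure D2:**
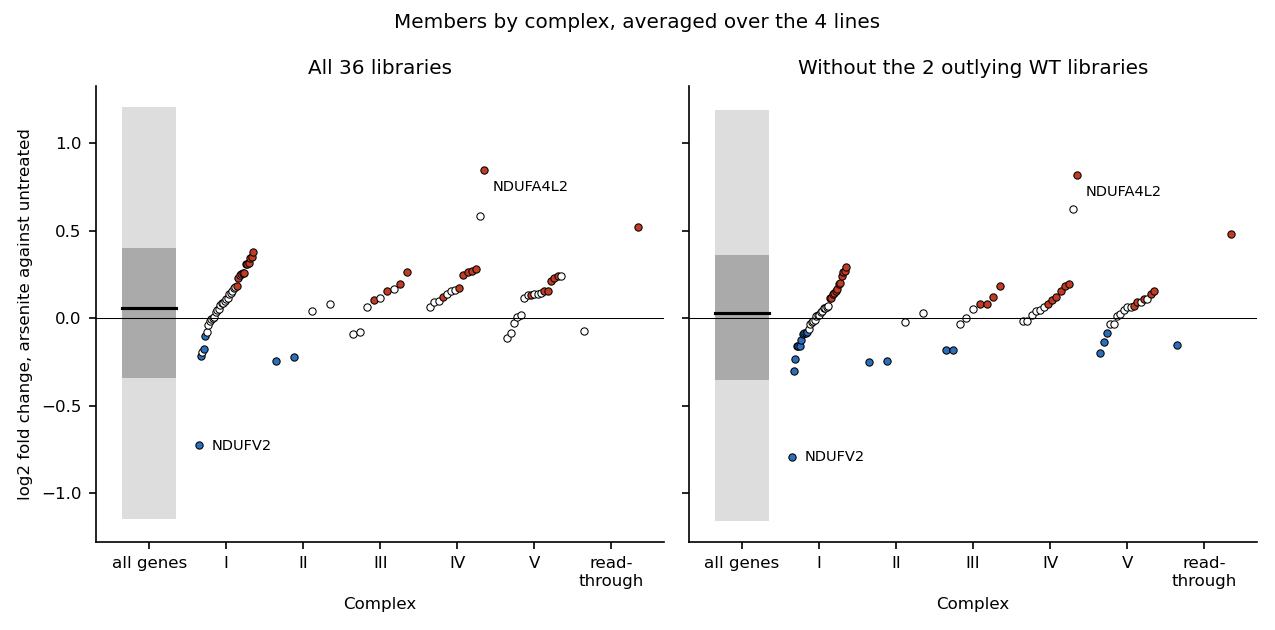
Fitted log2 fold change with arsenite against untreated, averaged over the 4 lines (vertical axis), for the 83 tested members by complex (horizontal axis), with all 36 libraries (left) and without the 2 outlying WT libraries (right). Each point is a gene, filled red or blue where called higher or lower and open otherwise; the bars at the left of each panel give the median (line), the middle 50% (dark) and the middle 90% (light) of all tested genes. NDUFV2 stands lowest and NDUFA4L2 highest in both panels.

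In complex I, 11 members were called higher, 4 lower and 22 were not called with all libraries, and 12 were called higher and 11 lower without the outlying ones. Over all tested genes 37.4% were called higher and 31.5% lower, and 38.4% and 35.3% without the outlying libraries. The same shares apply to the counts of the other complexes below. A difference between complexes was not tested. Of the 7 core subunits, which carry the catalytic centres, NDUFV1 was called higher and NDUFV2 and NDUFS1, both iron-sulfur proteins, lower, in both fits. NDUFV2 (chr18:9102630-9134345, GRCh38) lay at 64.4, 59.9 and 60.1 CPM in the untreated vector libraries and at 35.7, 33.8 and 35.1 CPM with arsenite. In the WT line it lay at 59.0, 68.6 and 68.4 CPM untreated and at 57.0, 37.6 and 41.6 CPM with arsenite. D162R R234D cells gave 65.2, 61.9 and 72.7 CPM untreated and 37.9, 37.5 and 34.3 CPM with arsenite. Every arsenite library was below every untreated one, and the WT replicate at 57.0 CPM was the outlying library. In SxxS cells the values were 62.9, 63.2 and 60.4 CPM untreated and 37.6, 39.2 and 37.6 CPM with arsenite. NDUFV2 fell by 0.73 (SE 0.060, edgeR adjusted p = 7.1e-12), and by 0.80 (SE 0.031) without the outlying libraries. By line it fell by 0.82 (vector cells, SE 0.12), fell by 0.87 (D162R R234D, SE 0.12), fell by 0.70 (SxxS, SE 0.12) and fell by 0.52 (WT, SE 0.12), the last being −0.74 (SE 0.067) without the outlying libraries.

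NDUFV1 (chr11:67605653-67612554) moved the other way. Its lowest, median and highest levels were 134.5, 143 and 169.9 CPM in the 12 untreated libraries and 164.0, 181 and 290.4 CPM in the 12 arsenite libraries. The 2 ranges overlapped by single libraries, but within each line all 3 arsenite libraries were above all 3 untreated ones. NDUFV1 rose by 0.38 (SE 0.074, edgeR adjusted p = 5.1e-05), and by 0.29 (SE 0.025) without the outlying libraries. The proteins of NDUFV1 and NDUFV2 sit side by side at the NADH-oxidizing tip of the complex.

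Among the 30 accessory subunits, 10 were called higher and 2 lower with all libraries, and 11 higher and 9 lower without the outlying ones. NDUFB9 lay at 153.7, 165.7 and 201.3 CPM (lowest, median, highest) untreated and at 191.8, 206.7 and 355 CPM with arsenite, a rise of 0.35 (SE 0.078, edgeR adjusted p = 0.00021). NDUFA5 (chr7:123536997-123557904) lay at 75.2, 81.5 and 88.2 CPM untreated and at 64.2, 70.6 and 74.8 CPM with arsenite. Every arsenite library of NDUFA5 was below every untreated one, the outlying WT library included, and the fall was 0.22 (SE 0.025, edgeR adjusted p = 6.2e-09). NDUFA10 (chr2:239892450-240025743) showed the opposite order, with 91.7, 94.6 and 102 CPM untreated and 110.5, 117 and 144.5 CPM with arsenite. It rose by 0.31 (SE 0.038, edgeR adjusted p = 2.9e-08), with every arsenite library above every untreated one. NDUFA10 and the core subunit NDUFS1, which fell by 0.18, were singled out after their values were seen. NDUFC1, the other accessory subunit called lower with all libraries, fell by 0.10 (SE 0.043, edgeR adjusted p = 0.041).

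In complex II, SDHC and SDHD, which anchor the enzyme in the membrane, were both called lower in both fits. SDHA and SDHB, the catalytic flavoprotein and iron-sulfur subunits, were not called, at 0.08 and 0.04 on the log2 scale, and the difference between the catalytic and the anchor subunits was not tested. Within D162R R234D cells SDHB was also called lower without the outlying libraries, at −0.11 (SE 0.046, edgeR adjusted p = 0.036), but not with all libraries, at −0.10 (SE 0.098). SDHD (chr11:112086824-112120016) lay at 118.5, 114.7 and 110.0 CPM in the untreated vector libraries and at 96.7, 94.5 and 97.6 CPM with arsenite. In D162R R234D cells it lay at 123.6, 120.7 and 129.5 CPM untreated and at 96.7, 96.9 and 95.8 CPM with arsenite. Within each of the 4 lines all 3 arsenite libraries were below all 3 untreated ones, with the 12 arsenite libraries between 94.5 and 110.5 CPM and the 12 untreated ones between 110.0 and 129.5 CPM. SDHD fell by 0.24 (SE 0.023, edgeR adjusted p = 1.4e-10). SDHC (chr1:161314381-161363206) lay between 96.2 and 110.4 CPM with arsenite and between 109.0 and 129.3 CPM untreated, so that the ranges overlapped at their ends. It fell by 0.22 (SE 0.030, edgeR adjusted p = 1.7e-07). It was not called in the WT line with all libraries, at −0.13 (SE 0.060, edgeR adjusted p = 0.076), and was called there without the outlying libraries, at −0.17 (SE 0.052, edgeR adjusted p = 0.0061).

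**Figure D3:**
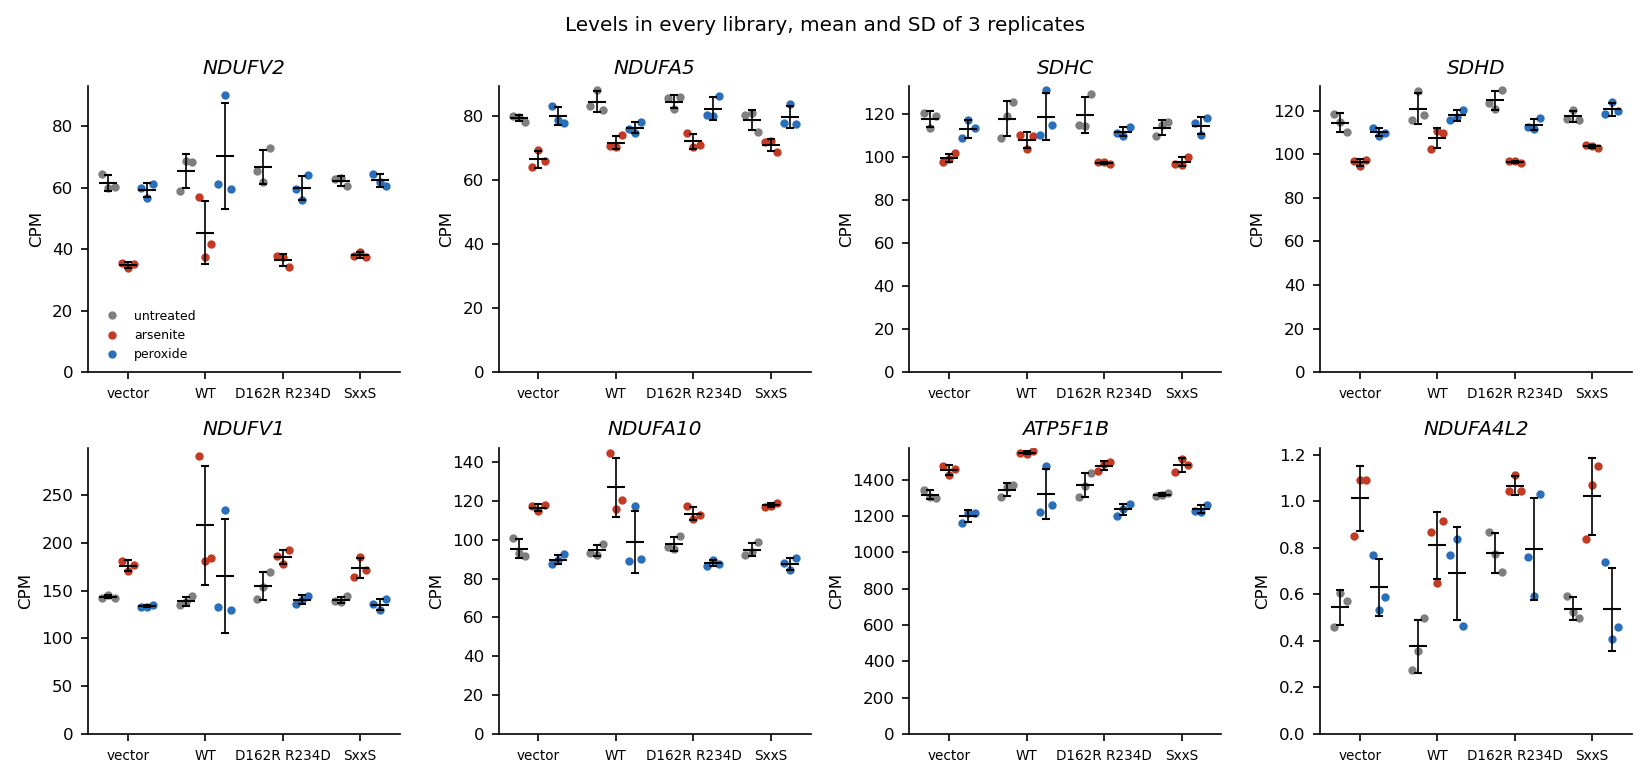
Level in CPM (vertical axes, from 0) of 8 members in every library, by line (horizontal axes) and treatment (colours); points are libraries, black bars the mean and SD of 3 replicates. The top row holds members called lower with arsenite, NDUFV2, NDUFA5, SDHC and SDHD, and the bottom row members called higher, NDUFV1, NDUFA10, ATP5F1B and NDUFA4L2; the single high WT points are the outlying libraries.

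In complex III, 4 of 9 members were called higher and 0 lower with all libraries, against 37.4% and 31.5% of all tested genes. UQCRC1 and UQCRC2, the large core proteins, rose by 0.16 and 0.10. UQCRH lay at 230.5, 252 and 295.5 CPM (lowest, median, highest) untreated and at 268, 295 and 500.4 CPM with arsenite. It rose by 0.27 (SE 0.072, edgeR adjusted p = 0.0016), and its near copy UQCRHL rose by 0.20 (SE 0.076, edgeR adjusted p = 0.023). The ranges of UQCRH overlapped. Leaving out the outlying libraries added 2 members called lower, UQCRFS1, the Rieske iron-sulfur protein, and UQCR10, a small subunit, both at −0.18. With all libraries they stood at −0.09 (SE 0.069) and −0.08 (SE 0.081) and were not called.

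In complex IV, 7 of 14 tested members were called higher and 0 lower, with and without the outlying libraries. Of all tested genes 37.4% were called higher and 31.5% lower with all libraries, and 38.4% and 35.3% without the outlying ones. COX7A2 lay at 85.4, 96.3 and 130.3 CPM untreated and at 105, 114 and 206 CPM with arsenite, and rose by 0.28 (SE 0.090, edgeR adjusted p = 0.0070). COX4I1 and COX6A1 both rose by 0.27, NDUFA4 by 0.17 and COX7A2L by 0.12. COX8A, at 0.16, COX6B1, at 0.09, and COX7B, at 0.06, were not called. NDUFA4L2 (chr12:57234903-57240715) had the highest fitted change of all members at a low level. It lay at 0.461, 0.605 and 0.569 CPM in the untreated vector libraries and at 0.852, 1.09 and 1.09 CPM with arsenite. Within each line all 3 arsenite libraries were above the untreated ones, while over the 12 and 12 libraries the ranges, 0.275 to 0.867 CPM and 0.647 to 1.15 CPM, overlapped. NDUFA4L2 rose by 0.85 (SE 0.12, edgeR adjusted p = 3.6e-07). Its exons overlap SHMT2 on the opposite strand, so that its reads cannot be told apart from those of SHMT2 without strand. COX6B2, also near the filter, stood at 0.59 (SE 0.29) and was not called (edgeR adjusted p = 0.071).

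In the ATP synthase, 6 of 17 tested members were called higher and 0 lower, against 37.4% and 31.5% of all tested genes. ATP5F1B (chr12:56638175-56645984) lay at 1346, 1306 and 1302 CPM in the untreated vector libraries and at 1477, 1425 and 1461 CPM with arsenite. Within each line all 3 arsenite libraries were above the untreated ones, and over the 12 and 12 libraries the ranges met, at 1302 to 1440.0 and 1425 to 1559 CPM. ATP5F1B rose by 0.16 (SE 0.026, edgeR adjusted p = 6.4e-06). Within lines its values were 0.14, 0.20 and 0.17 in vector, WT and SxxS cells, each called, and 0.11 in D162R R234D cells, which was not called. ATP5MF, a membrane subunit, rose by 0.24 (SE 0.078, edgeR adjusted p = 0.0075), and ATP5F1E, the epsilon subunit of F1, by 0.23 (SE 0.096, edgeR adjusted p = 0.036). ATP5F1A, the alpha subunit that alternates with beta in the F1 head, was not called, at 0.01 (SE 0.034). Leaving out the outlying libraries gave 5 called higher and 3 lower, ATP5F1C, ATP5MC1 and ATP5MC3. The readthrough gene ATP5MF-PTCD1 (chr7:99419749-99466197) lay at 87.9 to 110.5 CPM untreated and at 128.5 to 167.3 CPM with arsenite, every arsenite library above every untreated one, and rose by 0.52 (SE 0.046, edgeR adjusted p = 3.3e-11). It shares exons with ATP5MF and PTCD1, and its value cannot be assigned to either. NDUFC2-KCTD14 carried 81.4% as many counts as NDUFC2, with which it shares exons.

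Few members had arsenite and untreated libraries that did not overlap at all. Over the 12 arsenite and 12 untreated libraries, NDUFA5 and NDUFV2 lay wholly below, 2 of 83 members (2.41%) against 16.6% of all tested genes, and NDUFA10 and ATP5MF-PTCD1 wholly above, 2.41% against 13.4%. Within each of the 4 lines taken alone, the arsenite libraries lay below for 4 members, NDUFS1 and SDHD beside NDUFA5 and NDUFV2 (4.82% against 18.8% of all tested genes). They lay above for 5, NDUFV1, NDUFA4L2 and ATP5F1B beside NDUFA10 and ATP5MF-PTCD1 (6.02% against 16.8%). With the outlying libraries left out, the same members were found and UQCRFS1 joined those below within each line. The shares of all tested genes were then 18.4% below and 17.3% above over all libraries, and 20.9% below and 21.4% above within lines.

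The c subunit of the ATP synthase, which forms its proton-driven ring, comes from 3 genes, ATP5MC1, ATP5MC2 and ATP5MC3, whose mature proteins are the same. The share of each in their summed counts per kilobase of exon was compared, so that a change common to all 3 cancels. ATP5MC2 took 26.2% ± 0.77 (SD, n = 12) untreated and 29.4% ± 1.2 (SD, n = 12) with arsenite. The difference was 3.22 percentage points (two-sided exact permutation test within lines, p = 1.25e-05, the smallest the test can give, adjusted over 3 genes and 2 oxidants p = 7.5e-05). Within each of the 4 lines the arsenite libraries were above the untreated ones, although the 12 and 12 libraries overlapped at 27.1% to 31.3% and 25.1% to 27.6%. The share of ATP5MC1 fell by 1.2 points (exact permutation test, adjusted p = 0.0081) and that of ATP5MC3 fell by 2.02 points (exact permutation test, adjusted p = 0.00049). With peroxide the share of ATP5MC2 was 27.3% ± 0.94 (SD, n = 12), a difference of 1.11 points (exact permutation test, adjusted p = 0.0043). ATP5MC1 and ATP5MC3 differed by −0.391 and −0.716 points with peroxide (exact permutation test, adjusted p = 0.28 for both).

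**Figure D4:**
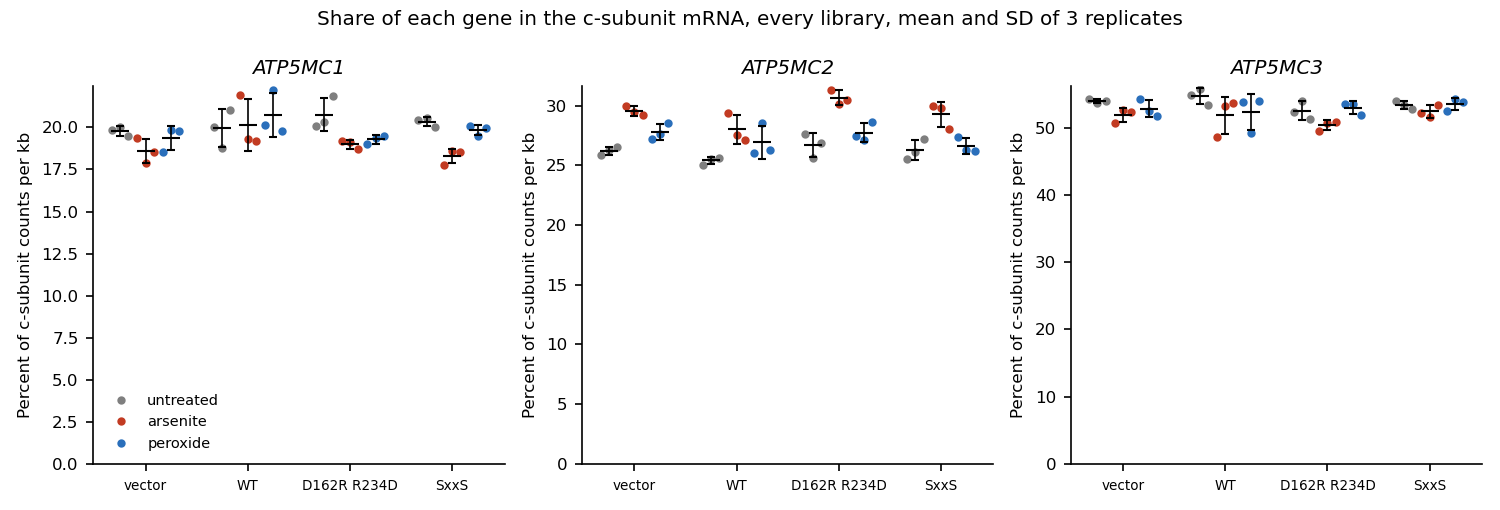
Share of each c-subunit gene in the summed counts per kilobase of exon of the 3 genes, in percent (vertical axes, from 0), in every library by line (horizontal axes) and treatment (colours); points are libraries, black bars the mean and SD of 3 replicates. For ATP5MC2 the arsenite points lie above the untreated points of the same line in all 4 lines.

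The order of the 3 shares depended on the length used. Per kilobase of all annotated exons ATP5MC3 led with 53.6% untreated, while per kilobase of the main transcript ATP5MC2 led with 49.9%, ATP5MC1 at 25.3% and ATP5MC3 at 24.9%. With that length the share of ATP5MC2 rose by 4.12 points with arsenite and those of ATP5MC1 and ATP5MC3 fell by 2.34 and 1.78 points. In the test of each gene's own level with all libraries, none of the 3 was called, at −0.11 (SE 0.078) for ATP5MC1, 0.14 (SE 0.071) for ATP5MC2 and −0.09 (SE 0.048) for ATP5MC3. Without the outlying libraries ATP5MC1 and ATP5MC3 were called lower, at −0.20 (SE 0.038) and −0.14 (SE 0.023). ATP5MC2 was not called there, at 0.06 (SE 0.030).

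The response within each line was asked next. With arsenite 8 of 83 members were called in vector cells, 7 in D162R R234D and 8 in SxxS cells, against 43.4%, 44% and 43.6% of all tested genes, and 56 in WT cells against 53.6%. The fit without the outlying libraries called 23, 27, 32 and 38 in vector, D162R R234D, SxxS and WT cells, against 56.4%, 56.9%, 57% and 52.9%. In the same order of lines, the median change of the members was 0.03, −0.03, 0.07 and 0.42 with all libraries. For all tested genes it was 0.04, 0.04, 0.04 and 0.07. Without the outlying libraries the members' medians were 0.01, −0.05, 0.06 and 0.14, beside 0.02, 0.02, 0.03 and 0.03 for all tested genes. NDUFA5, NDUFV2 and SDHD were called lower and NDUFA10 and ATP5MF-PTCD1 higher in all 4 lines with all libraries. In the fit without the outlying libraries SDHC and NDUFC1 joined the former and ATP5F1B, NDUFB9, NDUFB11 and NDUFV1 the latter. NDUFB11 is an accessory subunit of complex I. The interaction of line and arsenite, which tests whether the response differed between lines, called 0 of 83 members and 0% of all tested genes (edgeR). At an unadjusted p under 0.05 there were 6 members, and DESeq2 also called 0. With the outlying libraries left out edgeR again called 0 members, against 0.205% of all tested genes.

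**Figure D5:**
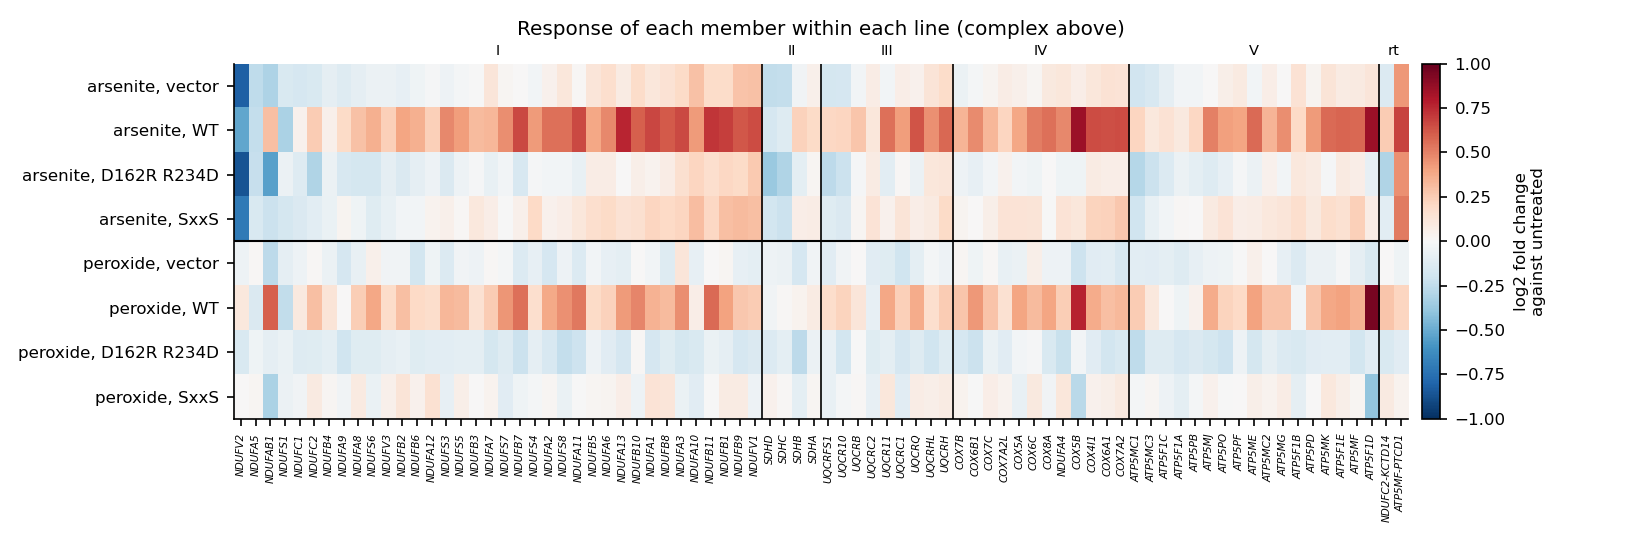
Fitted log2 fold change against untreated cells of the same line (colour, red higher and blue lower) for 80 tested members (columns, ordered by complex and by the averaged arsenite value) in the 4 lines with arsenite and with peroxide (rows); NDUFA4L2 and COX6B2, which lie near the filter, and 1 member not described here are left out, and rt marks the readthrough genes. The WT rows, which hold the outlying libraries, are redder than those of the other lines, and NDUFV2 is blue in all 4 arsenite rows.

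Hydrogen peroxide moved the members less. Averaged over the lines, 4 of 83 were called, 0 higher and 4 lower, against 12.1% of all tested genes, 6.78% higher and 5.3% lower. Of these, 3 are described here, ATP5F1A at −0.11 (SE 0.034, edgeR adjusted p = 0.034), ATP5F1B at −0.10 (SE 0.026, edgeR adjusted p = 0.010) and UQCRC2 at −0.10 (SE 0.028, edgeR adjusted p = 0.016). ATP5F1A lay at 588.6, 602.7 and 641 CPM (lowest, median, highest) in untreated libraries and at 530.7, 551.6 and 698 CPM with peroxide, and ATP5F1B at 1302, 1321 and 1440.0 CPM and at 1162, 1227 and 1478 CPM. The ranges of both overlapped through the outlying WT library, which gave the highest peroxide value of each. The median change was 0.03 for the members and 0.00 for all tested genes.

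Without the outlying libraries 20 of 83 members (24.1%) were called with peroxide, all lower, against 28.6% of all tested genes (13.9% lower). The median of the members was −0.05 against −0.01 for all. The 20 included both large core proteins of complex III and ATP5F1A, ATP5F1B and ATP5F1C of the F1 head. None of the 14 tested members of complex IV was among them. The 14 complex IV genes are few to set beside a share of 13.9% called lower over all tested genes. A difference between complexes was not tested. SDHB had the lowest value, −0.17 (SE 0.024, edgeR adjusted p = 7.6e-07), and was singled out after its values were seen. Within lines, with all libraries, 0 members were called in vector, D162R R234D and SxxS cells, against 1.35%, 1.03% and 1.02% of all tested genes, and 4 in WT cells against 8.06%. The 4 were all higher, as were 5.8% of all tested genes (ATP5F1D, COX5B, NDUFA4L2 and NDUFAB1). In the fit without the outlying libraries the counts were 9, 18, 2 and 11 in vector, D162R R234D, SxxS and WT cells, against 9.87%, 10.4%, 6.56% and 8.98%.

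The response to peroxide differed between lines for 0 of 83 members with all libraries, against 0.685% of all tested genes (edgeR interaction, 3 members at an unadjusted p under 0.05), and DESeq2 called 1, ATP5F1D. Without the outlying libraries 2 were called, ATP5F1D, the delta subunit of F1 (edgeR adjusted p = 0.0034), and NDUFAB1, the mitochondrial acyl carrier protein that is also a complex I subunit (edgeR adjusted p = 0.019), against 1.51%. ATP5F1D lay at 110.5, 91.7 and 100.2 CPM in untreated WT cells and at 138, 298.7 and 147 CPM with peroxide, where 298.7 CPM was the outlying library. In SxxS cells it lay at 140.9, 150.3 and 143 CPM untreated and at 126.6, 105 and 98.0 CPM with peroxide. So all 3 peroxide libraries were above the untreated ones in WT cells and below them in SxxS cells. NDUFAB1 lay at 63.6, 69.1 and 70.9 CPM untreated and 80.4, 142.5 and 85.9 CPM with peroxide in WT cells, and at 81.4, 88.7 and 80.2 CPM and 74.5, 61.6 and 64.5 CPM in SxxS cells. It had the same order as ATP5F1D in both lines.

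Between the oxidants, 28 members were called, 24 higher and 4 lower with arsenite than with peroxide, against 68.7% of all tested genes (37.3% higher and 31.3% lower), and 64 without the outlying libraries, 50 higher and 14 lower, against 74.8% (40.1% higher and 34.7% lower). The 4 lower were NDUFV2 at −0.70 (SE 0.060, edgeR adjusted p = 1.5e-11), SDHD at −0.20, SDHC at −0.19 and NDUFA5 at −0.18. The highest were NDUFA4L2 at 0.58 (SE 0.12), ATP5MF-PTCD1 at 0.50 (SE 0.046) and NDUFV1 at 0.39 (SE 0.074). Here NDUFV2 in the peroxide libraries lay at 56.0, 60.8 and 90.2 CPM (lowest, median, highest), against 57.0 CPM as its highest arsenite value, so that the groups overlapped only through the outlying WT arsenite library.

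Untreated, the complemented lines did not differ from the vector line in any member called by edgeR. In WT, D162R R234D and SxxS cells 0 members were called, against 0.196%, 0.0267% and 0.0178% of all tested genes, with 1, 2 and 0 at an unadjusted p under 0.05, and DESeq2 called 0 in each. The medians of the members were −0.02, 0.06 and −0.05. Without the outlying libraries, neither of which is in these groups but both of which enter the shared estimate of spread, 4 members were called lower in WT cells, against 2.99% of all tested genes (2.19% lower). These were ATP5F1D at −0.44 (SE 0.095, edgeR adjusted p = 0.011), COX5B, a zinc-binding subunit of complex IV, at −0.43 (SE 0.096, edgeR adjusted p = 0.014), NDUFAB1 at −0.34 (SE 0.084, edgeR adjusted p = 0.025) and NDUFB11 at −0.19 (SE 0.056, edgeR adjusted p = 0.047). ATP5F1D lay at 126.3, 144.6 and 140.4 CPM in untreated vector cells, above all 3 untreated WT libraries. NDUFAB1 lay at 76.7, 91.7 and 89.5 CPM there, also above all 3. The same untreated WT libraries enter the interaction with peroxide. The calls of ATP5F1D and NDUFAB1 there and here are therefore not independent.

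The factors that build the complexes were called in both directions with arsenite, averaged over the lines, as were all tested genes, of which 37.4% were called higher and 31.5% lower (38.4% and 35.3% without the outlying libraries). Of 16 assembly factors of complex I, 8 were called higher and 4 lower (8 and 5 without the outlying libraries), with FOXRED1 at 0.41, NDUFAF7 at 0.39 and TMEM186 at −0.64. Of 4 for complex II, 1 was called higher (SDHAF3, at 0.09, which was not called without the outlying libraries, at 0.04) and 1 lower (2 without them). The 1 called lower in both was SDHAF1, which helps put iron-sulfur clusters into SDHB. It lay at 7.61, 7.28 and 7.21 CPM in the untreated vector libraries and at 2.80, 2.60 and 2.25 CPM with arsenite, with no overlap, and fell by 1.57 (SE 0.10, edgeR adjusted p = 2.3e-14). Of 8 for complex III, 3 were called higher and 3 lower (3 and 4), with UQCC1 at 0.52, LYRM7, which serves the Rieske protein, at −0.71 and UQCC6 at −0.38. Of 24 for complex IV, 6 were called higher and 9 lower (7 and 13), with CMC1 at 0.59, COA7 at −0.74 and the copper chaperone SCO2 at −0.68. Of 4 for the ATP synthase, 2 were called higher and 2 lower (2 and 2), with TMEM242 at 0.49, ATPAF1 at −0.36 and TMEM70 at −0.34. The medians of these 5 lists lay between −0.08 and 0.17, beside 0.06 for all tested genes, and between −0.13 and 0.09 beside 0.03 without the outlying libraries.

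Of the electron carriers and the inhibitor of the ATP synthase, cytochrome c (CYCS) and cytochrome c1 (CYC1) were not called, at 0.01 and 0.07, and ATP5IF1 was called higher, at 0.22. Of 11 tested regulators of these genes, 6 were called higher and 4 lower, with and without the outlying libraries, against the 37.4% and 31.5% of all tested genes. GABPB1, which encodes the beta chain of GABP, lay at 30.1, 28.5 and 30.1 CPM in untreated vector cells and at 61.3, 64.4 and 63.7 CPM with arsenite, a rise of 1.06 (SE 0.035, edgeR adjusted p = 3.0e-21) with no overlap in this line. GABPB2, encoding the other beta chain, fell by 0.56, and the coactivator PPARGC1B fell by 0.77. Of the 13 subunits encoded in mitochondrial DNA, 11 were called lower and 0 higher with arsenite, against 31.5% and 37.4% of all tested genes. Their median was −0.85 (−0.85 without the outlying libraries). With peroxide 3 were called higher and 0 lower, against 6.78% and 5.3% of all tested genes, at a median of 0.13. For the nuclear-encoded members the 2 medians were 0.14 and 0.03 with all libraries and 0.05 and −0.05 without the outlying ones.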

How the data were processed

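Messenger RNA of 36 libraries was sequenced as paired-end reads, which the authors aligned to the GRCh38 primary assembly with QuasR. The authors deposited 1 table of raw counts per gene, not normalized and not pooled, with an exon length per gene. Annotation release, strand and the treatment of multi-mapping reads are not given in the sources used here. Samples were grouped by line and treatment from the labels.

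Genes with at least 10 counts over the 3 untreated vector libraries were tested (22486, of them 83 members) with edgeR 4.0.16 (TMM, robust quasi-likelihood, 1 mean per group over all 36 libraries) in R 4.3.3, with Benjamini-Hochberg adjustment over all tested genes and calls at 0.05. The SE of an edgeR log2 change was taken as the size of the change divided by the square root of its quasi-likelihood F statistic. DESeq2 1.42.0 served as an alternative. The biological coefficient of variation was 12.4%. Positions, exon overlaps and main transcripts (MANE Select where given, for 87 members) are from GENCODE on GRCh38, which may not be the authors' release.

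The members and lists were chosen with earlier results of these data known. Named genes are, per complex, the 2 highest and 2 lowest called with arsenite, called members with peroxide (up to 5 each way), the 3 highest and lowest between oxidants, called members between lines, isoform families, the 3 highest and lowest levels, up to 3 called genes per other list, TXNL1, and members below the filter. Genes that the text names for groups that do not overlap, or for calls made only without the outlying libraries, were chosen after their values were seen. The code was tested on simulated counts. Every replicate pair differed by more than counting error (chi-square per degree of freedom 3.18 to 331). Values of 1 member and 1 marker gene are not reported here.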

Additional observations from a re-analysis of the deposited data

How the results depend on the processing

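Members called are given first for arsenite, peroxide and arsenite against peroxide averaged over the lines (35, 4 and 28). Except without both outlying libraries, the shares of all tested genes called under these alternatives are not given here. The counts alone therefore do not show whether a shift was particular to the members. Without a filter on low counts they were 22, 0 and 18. With upper-quartile factors arsenite gave 54 and arsenite against peroxide 46; this scaling moved the median of all genes with arsenite from 0.06 to 0.15 on the log2 scale. With only the groups compared, arsenite against peroxide gave 18. Leaving out 1 library at a time gave 30 to 52, 2 to 8 and 25 to 60, the highest values of all 3 without WT peroxide replicate 2; the peroxide count was 2 without any one of vector untreated 1, WT untreated 3, SxxS untreated 3, vector peroxide 1, WT peroxide 3, D162R R234D peroxide 1, SxxS peroxide 1 or SxxS peroxide 2.

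Within lines, with only the groups compared, arsenite called 33, 3, 19 and 44 members in vector, WT, D162R R234D and SxxS cells, and peroxide 19, 0 and 2 in vector, WT and SxxS cells; the untreated comparisons with vector called 4 in WT and 3 in SxxS cells. DESeq2 called 7 with peroxide in WT cells and 1 in the interaction with peroxide, and the fit without a filter called 1 with peroxide in WT cells. Leaving out 1 library at a time gave 7 to 11, 13 to 71, 6 to 14 and 7 to 12 with arsenite in vector, WT, D162R R234D and SxxS cells, the 13 without WT arsenite replicate 1 and the 14 without WT peroxide replicate 2. It gave 0 to 23 with peroxide in WT cells (0 without WT untreated 2, 1 without WT untreated 1 or WT peroxide 2, 16 without WT arsenite 1, 20 without WT peroxide 3 and 23 without WT peroxide 1), 0 to 1 in D162R R234D cells (1 without WT peroxide 2) and 0 in vector and SxxS cells. It gave 0 to 3 in the interaction with peroxide (1, 2 and 3 without WT peroxide 3, WT peroxide 1 and WT arsenite 1), and 0 in the interaction with arsenite and in the comparisons of untreated lines. Without both outlying WT libraries the averaged counts were 48, 20 and 64, arsenite called 23, 38, 27 and 32 in vector, WT, D162R R234D and SxxS cells, and peroxide called 9, 11, 18 and 2. The untreated WT line then gave 4 and the interaction with peroxide 2. The cause of these moves was not tested, beyond the fewer libraries each fit holds.

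The values of COX6B1 and COX7B with arsenite, which were not called, reversed without both outlying libraries, to −0.016 and −0.014. Of the values of named genes under the alternatives, 2420 kept direction and call, 21 gained a call, 87 lost one and 2 reversed. The c-subunit shares without 1 library ranged with arsenite from −1.42 to −1.06 points for ATP5MC1, 3.05 to 3.37 for ATP5MC2 and −2.25 to −1.62 for ATP5MC3, and with peroxide from −0.579 to −0.251, 0.909 to 1.23 and −0.915 to −0.331. Per length of the main transcript, chosen after seeing the data, ATP5MC1 with peroxide passed at −0.806 points (exact permutation test, adjusted p = 0.027). Replicates share only a number: 18 of 36 libraries correlated best with their own number, the correlation of same-numbered pairs ran from −0.85 to 0.78 (median 0.016), and the fit with the replicate block called 33, 4 and 27 members in the averaged comparisons and 53 with arsenite in WT cells. Members near the filter, COX6B2 and NDUFA4L2, have few counts and imprecise changes.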
